A study of Schizosaccharomyces pombe with 12 samples.

Results

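The comparison was made directly between the fission yeast strain lacking dis2 and the strain lacking swd22, without wild-type cells as a reference, and used 6 of the 12 libraries of the series, 3 from each strain. Both were h+ haploids in log phase vegetative growth in YES medium at 30°C. In one, swd22 was replaced by the HygMX marker, and in the other, dis2 was replaced by NatMX. Poly(A)+ RNA was sequenced as strand-specific libraries, and raw counts per annotated locus were deposited. Each deletion was carried by 1 strain, so a difference of strain background and an effect of the deletion cannot be told apart, and the replicates differ only as cultures of that strain.

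Dis2 is the main catalytic subunit of protein phosphatase PP1 in fission yeast. Together with the scaffold protein Ppn1 and the WD-repeat protein Swd22 it forms a module of the cleavage and polyadenylation factor, the machine that cuts nascent transcripts of RNA polymerase II at the poly(A) site and sets the polymerase up for termination. Dis2 also acts outside this module, for instance in mitotic exit and in glucose sensing. Swd22 is a WD-repeat protein related to the Swd2 subunit of a histone methyltransferase complex. A direct comparison asks which transcripts separate loss of the phosphatase from loss of its partner.

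Of 4943 coding genes tested outside the loci held apart, 35 were higher in dis2Δ than in swd22Δ (0.708%) and 5 were lower (0.101%). Of 994 non-coding loci, 19 were higher (1.91%) and 10 lower (1.01%). A gene was counted when edgeR's quasi-likelihood test gave an adjusted p at or below 0.05, the strains differed at least 2-fold and the mean normalized count was at least 100 in either strain. By the adjusted p alone, 467 coding genes were higher (9.45%) and 376 lower (7.61%), and 109 non-coding loci were higher (11.0%) and 94 lower (9.46%). In bulk RNA, fewer cells of a type and less RNA per cell cannot be told apart. Small differences were spread over both directions, while those past 2-fold lay mostly on the side of dis2Δ. The 3 libraries of one strain lay wholly above the 3 of the other for all 40 coding genes counted. Over all coding genes tested the dis2Δ libraries lay wholly above in 17.3% and wholly below in 17.1%, and over all non-coding loci in 19.7% and 16.9%.

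The libraries held between 19543744 and 22924462 counts. Replicate 2 of swd22Δ stood apart from the other swd22Δ libraries, with chi-square values per degree of freedom of 17.8 and 22.6 against them, where other replicate pairs gave 5.38 to 9.84. Without it, 34 coding genes were higher and 4 lower, and 33 and 3 of these were also among the 35 and 5. No tested marker of mating type or meiosis passed the edgeR adjusted p, and the meiotic markers rec8 and dmc1 had too few counts to be tested. Wider lists did hold genes that passed it. Of 19 tested meiotic genes silenced in vegetative growth, 3 were higher in dis2Δ (15.8%) and 1 lower (5.26%), and spo6 was called higher. Of 21 genes of mating and pheromone response, 7 were higher (33.3%) and none lower. Summed over the P cell markers map2, map3 and sxa1, levels were 608 to 661 CPM (each count divided by the library total and scaled to 1e6) in dis2Δ and 608 to 666 in swd22Δ. The 6 M cell markers summed to 68.3 to 71.7 CPM and 73.6 to 78.8 CPM, ranges that do not overlap, with the M-factor genes mfm1, mfm2 and mfm3 each at 3.17 CPM or less. The 5 meiotic markers summed to 5.41 to 5.85 CPM and 5.44 to 6.12 CPM, and none of the markers was at 0 in a strain.

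The deleted genes matched the labels. For dis2 the dis2Δ libraries had 820.3, 698 and 863 normalized counts, scaled to the mean library, and the swd22Δ libraries 13049, 12589 and 14309. For swd22 the dis2Δ libraries had 1470.1, 1426 and 1313 normalized counts against 26.0, 9.31 and 13.9 in swd22Δ. Each gene was thus far lower in its own deletion strain, with some counts still assigned to the locus. The paper reports an absence of reads over the deleted coding sequence in each null strain, while the counts here are per annotated locus. SPAC824.03c, an uncharacterized coding gene 127 bp from swd22 in the ASM294v3 annotation, had 2121, 2065 and 2037 normalized counts in dis2Δ and 11271, 9257 and 10839 in swd22Δ, 5.04-fold more in swd22Δ (log2 difference -2.33 ± 0.08 SE, edgeR adjusted p = 5.16e-12). It lies beside the edited locus and was not counted.

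The loci named SPAC186. and SPAC750. at the right end of chromosome I were also held apart. Of 17, 10 passed the low-count filter, and all 10 had an edgeR adjusted p at or below 0.05 with the higher level in dis2Δ. The transition was abrupt. The surface glycoprotein gene pfl9 had 716, 685 and 946 normalized counts in dis2Δ against 508, 540.2 and 464, and SPAC186.02c, nearer the end, had 31.9, 41.0 and 37.1 against 26.0, 20.5 and 17.1. From SPAC186.03 outward, the tested loci were nearly empty in swd22Δ. The GDT1-like gene gdt1 had 4712, 3487 and 4699 raw counts in dis2Δ and 25, 11 and 37 in swd22Δ, and the aldo/keto reductase gene SPAC750.01 had 2414, 2126 and 2584 raw counts against 12, 8 and 11, with 67.46% of its 51-base words unique in the genome. For 6 of the 10 tested loci no swd22Δ library had more than 3 raw counts. These 6 passed the low-count filter only through their dis2Δ counts, so the direction of their result was fixed by the filter. SPAC186.04c had 121, 128 and 171 raw counts in dis2Δ and 0 in every swd22Δ library, which makes it at least 47.2-fold higher in dis2Δ with a floor of 3 counts per swd22Δ library. Counts of ftm4 and SPAC186.03 are uncertain as well, since only 7.79% and 38.12% of their words are unique. Whether these loci are absent from the DNA of the swd22Δ strain cannot be told from RNA counts. The non-coding locus prl61, among the 19, lies in the same stretch, with 333, 298 and 344 normalized counts in dis2Δ and 0, 2.79 and 0 in swd22Δ. Without it the higher non-coding loci numbered 18.

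Of the 35 coding genes higher in dis2Δ, 20 lay within 100 kb of a chromosome end, where 132 coding genes were tested (15.2%), and 15 lay farther inside, among 4811 (0.312%). The left end of chromosome II held the largest differences. Of its 19 tested coding genes 10 were counted as higher, 17 had an edgeR adjusted p at or below 0.05 with the higher level in dis2Δ, none was lower by that measure, and the median log2 difference was 2.78. Chromosome ends in fission yeast carry heterochromatin and, next to it, regions of low transcription in growing cells, rich in genes for transporters and for the use of alternative nutrients. The count of 10 was the same with each library left out. A gene could pass the low-count filter through its dis2Δ counts alone, so the share and the median depend on that filter. With no low-count filter, 17 of 26 genes were higher by the edgeR adjusted p, 10 were called and the median was 1.92. With at least 10 counts required in every library, 12 of 13 were higher, 9 were called and the median was 1.91.

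eno102, which encodes an enolase, was at 555, 601 and 629 normalized counts in dis2Δ and at 21.0, 14.9 and 31.0 in swd22Δ, a 26.9-fold difference (log2 4.75 ± 0.17, edgeR adjusted p = 2.53e-11). SPBPB8B6.02c, annotated as a urea transporter, was at 505, 488 and 477 against 17.0, 19.6 and 22.5 (24.8-fold, edgeR adjusted p = 5.16e-12). Beside it, grt1, which encodes a transcription factor, was at 1035, 1125 and 1142 against 52.1, 41.9 and 49.2 (23.1-fold, edgeR adjusted p = 2.58e-13). For these genes the lowest dis2Δ library was far above the highest swd22Δ library. The acetamidase gene fah1, which overlaps grt1 on the other strand over its whole length, was 11.7-fold higher, and since the strand setting of the counting is not given, its reads cannot be told apart from those of grt1. SPBPB21E7.11, an uncharacterized gene, was 10.7-fold higher, and the arylsulfatase gene SPBPB10D8.02c 7.05-fold. aes1, annotated as a member of the phenazine biosynthesis family, was at 8539.8, 9219.7 and 9499 normalized counts in dis2Δ and 2156, 3037 and 1943 in swd22Δ (3.82-fold). Smaller differences were found for the transcription factor gene SPBC1348.12 (3.75-fold), the catechol O-methyltransferase gene cmt2 (3.44-fold) and the cysteine transporter gene SPBPB10D8.01 (2.62-fold). The rise was not uniform along this end. The asparaginase genes SPBPB8B6.05c and SPBPB21E7.09, which sit among the genes above, differed by log2 0.39 and 0.36, and the fluoride channel gene fex2 by 0.06 with an edgeR adjusted p of 0.834. Non-coding loci of the same end were counted too, among them SPNCRNA.1301, at 380.1, 339 and 403 normalized counts against 37.1, 36.3 and 24.6 (11.4-fold), as were SPNCRNA.1302 (2.26-fold) and SPNCRNA.1307 (2.62-fold). All of these overlap a called coding gene on the other strand, SPNCRNA.1301 grt1 over 51.4% of its length, SPNCRNA.1302 eno102 along its whole length and SPNCRNA.1307 SPBPB10D8.02c over 99.4%, and their reads cannot be told apart with certainty.

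**Figure D1:**
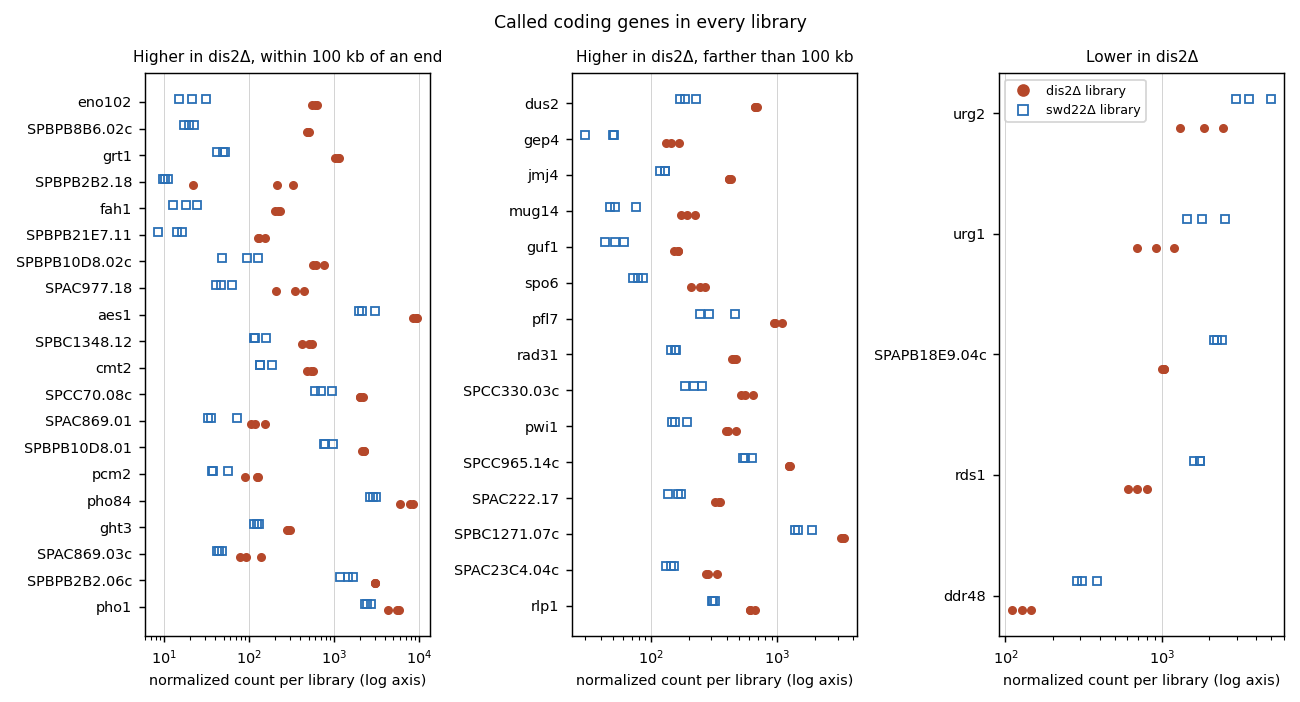
Normalized counts (log axis) of the 40 called coding genes, one row a gene, with 3 filled circles for the dis2Δ libraries and 3 open squares for the swd22Δ libraries. Circles and squares do not overlap in any row, and for SPBPB2B2.18 the circle of replicate 1, at 21.9, lies near the squares.

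The other ends differed less. The left end of chromosome I gave 2 called genes of 19, the right end 3 of 14 outside the loci held apart, the right end of chromosome II 4 of 17, the left end of chromosome III 0 of 29 and its right end 1 of 34. By the edgeR adjusted p alone, 11 of 19, 7 of 14 and 12 of 17 genes of the first 3 of these ends were higher in dis2Δ and none was lower, against 9.45% higher over all coding genes. At the ends of chromosome III, 3 of 29 (10.3%) were higher and 2 lower on the left, and 5 of 34 (14.7%) higher and 1 lower on the right, close to the share over all coding genes. The median log2 differences were 0.81 and 0.22 on chromosome I, 0.70 at the right end of chromosome II, and 0.02 and 0.03 on chromosome III, against -0.003 over all coding genes tested. On chromosome I the gluconate symporter gene ght3 was at 282, 286 and 299 normalized counts against 122, 114 and 132 (2.36-fold), and the amidase gene SPAC869.01, the isoaspartate methyltransferase gene pcm2 and the urea transporter gene SPAC869.03c were 2.65-, 2.61- and 2.31-fold higher. SPAC869.03c fell to log2 0.93 without replicate 3 of dis2Δ and was then not called. SPAC977.18 and SPBPB2B2.18 are uncertain, with 17.67% and 0% of unique 51-base words. SPBPB2B2.18 was at 21.9, 327 and 210.4 normalized counts in dis2Δ against 11.0, 10.2 and 9.62, so that 1 dis2Δ library was close to swd22Δ. SPCC70.08c, a methyltransferase gene, was the only called gene at an end of chromosome III (2.77-fold).

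**Figure D2:**
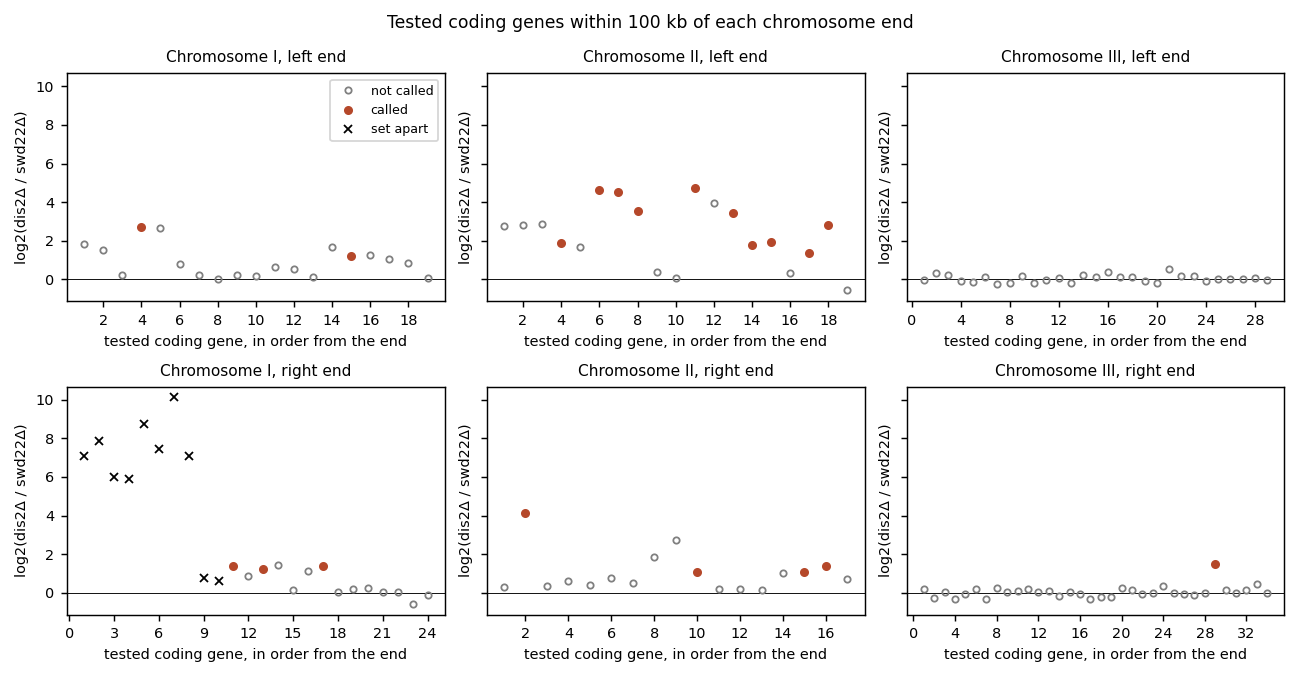
Log2 ratio of dis2Δ to swd22Δ for every tested coding gene within 100 kb of a chromosome end, in order from the end, with called genes filled, other genes open and the loci held apart as crosses. The left end of chromosome II holds 10 called genes, up to 4.75, the ends of chromosome III hold 1, and the height of crosses for genes with almost no counts in swd22Δ depends on the fit and is no measured fold.

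The phosphate-responsive genes at the right end of chromosome II were higher in dis2Δ. The transporter gene pho84 was at 8586, 7749 and 5969 normalized counts in dis2Δ and at 2846, 2613 and 3138 in swd22Δ (2.60-fold, log2 1.38 ± 0.11, edgeR adjusted p = 2.98e-07). The acid phosphatase gene pho1 was at 5837, 5448 and 4357 against 2452, 2297 and 2748 (2.09-fold, log2 1.06 ± 0.09, edgeR adjusted p = 1.63e-06). In both genes replicate 3 was the lowest dis2Δ library and still lay above every swd22Δ library. Without replicate 1 of dis2Δ the difference of pho1 was log2 0.97 and no longer passed the 2-fold cutoff. The long non-coding RNA prt2, whose transcription represses pho84, was at 611.5, 597 and 659 normalized counts in dis2Δ against 625, 588 and 628 (log2 0.02 ± 0.08, edgeR adjusted p = 0.893), but its annotation overlaps pho84 on the same strand, so reads of the overlap could not be divided between the 2 loci. tgp1, a glycerophosphodiester transporter gene of the phosphate response, differed by log2 -0.11 (edgeR adjusted p = 0.558). Of 14 listed genes of phosphate uptake and inositol pyrophosphate metabolism, 2 were called and 3 passed the edgeR adjusted p, all higher in dis2Δ (21.4% by the adjusted p, against 9.45% over all coding genes, of which 0.708% were called higher), with a median log2 difference of 0.07. The phosphatase gene SPBPB2B2.06c, at the same end, was at 3036, 2998 and 3067 normalized counts against 1477, 1186 and 1654 (2.11-fold), and at log2 0.96 without replicate 2 of swd22Δ.

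Away from the ends, 15 coding genes were higher in dis2Δ, and 9 of them stood close behind another coding gene on the same strand. The annotated transcript of that gene ended at most 500 bp upstream, and no coding gene of either strand lay wholly between. This held for 31.1% of the 4811 coding genes tested away from the ends. Counted with the nearest coding gene on either strand, it was 8 of 15 against 31.8%. Both the definition and the distance were chosen after the called genes had been seen, so the counts describe these genes and are no test. Termination of the upstream gene before the next promoter matters in such tandem pairs, since polymerase that runs on can interfere with the downstream gene. The spacers of 4 pairs are shown as examples, as the reference strain has them. In each the called gene moved and the gene upstream did not pass the test. That was also so for the pairs of pwi1, SPCC965.14c, SPAC222.17 and SPAC23C4.04c, whose spacers are not shown. The spacer of dus2, behind the chaperone gene sks2, is II:1108512-1108707. The spacer of jmj4, behind the ribosomal protein gene rpl6, is III:1438011-1438194. That of rad31, behind SPAC4C5.03, is I:1198285-1198390, and that of rlp1, behind the ribosomal protein gene rps27, is II:517985-518141. The coordinates and bases are those of RefSeq, build ASM294v3, on the plus strand from the base after the upstream transcript to the base before the called gene, and are in lower case because no motif was searched.
dus2: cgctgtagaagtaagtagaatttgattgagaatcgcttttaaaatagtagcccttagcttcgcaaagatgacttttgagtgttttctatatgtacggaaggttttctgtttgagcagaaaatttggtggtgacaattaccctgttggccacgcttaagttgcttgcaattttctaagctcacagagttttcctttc
jmj4: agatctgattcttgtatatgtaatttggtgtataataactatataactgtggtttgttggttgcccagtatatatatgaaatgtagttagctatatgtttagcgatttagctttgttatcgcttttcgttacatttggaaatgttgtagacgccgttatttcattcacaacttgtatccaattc
rad31: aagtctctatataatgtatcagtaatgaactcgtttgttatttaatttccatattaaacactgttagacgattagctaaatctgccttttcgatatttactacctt
rlp1: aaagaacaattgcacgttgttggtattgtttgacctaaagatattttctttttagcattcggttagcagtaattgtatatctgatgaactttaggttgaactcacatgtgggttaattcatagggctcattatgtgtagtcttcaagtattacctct

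dus2, which encodes a tRNA dihydrouridine synthase, was at 667, 689 and 667 normalized counts in dis2Δ and at 185, 169.5 and 228 in swd22Δ (3.48-fold, log2 1.80 ± 0.11, edgeR adjusted p = 2.49e-08). Its upstream neighbour sks2, 196 bp away, differed by log2 0.0005 (edgeR adjusted p = 0.997). jmj4, annotated as a histone demethylase gene, was at 414, 417 and 426 against 129, 116 and 128 (3.36-fold, edgeR adjusted p = 3.48e-08), with rpl6 at log2 0.14 (edgeR adjusted p = 0.186). jmj4 also lies wholly over str2, a gene on the other strand that differed by log2 -0.16. rad31, which encodes a subunit of the enzyme that activates SUMO, was at 434, 457 and 466 against 142, 158 and 154 (2.98-fold, edgeR adjusted p = 7.66e-08), with its neighbour SPAC4C5.03 at log2 0.08. rlp1, which encodes a RecA family ATPase, was at 609, 609 and 664 against 309, 301 and 319.7 (2.03-fold, edgeR adjusted p = 1.66e-06), with rps27 at log2 0.0025. In all of these the strains did not overlap, while the upstream gene had an adjusted p above 0.05. The mitochondrial lipid phosphatase gene gep4, 308 bp behind the cyclin gene cig1, was at 130.3, 145 and 165 against 50.1, 29.8 and 50.3 (3.39-fold), and here the upstream gene was lower in dis2Δ (log2 -0.24, edgeR adjusted p = 0.0237). The splicing factor gene pwi1 followed the ribosomal protein gene rps1802 (2.57-fold), SPAC222.17 the ATP synthase gene atp2 (2.14-fold), the cytosine deaminase gene SPCC965.14c followed SPCC965.13 (2.18-fold) and SPAC23C4.04c the haspin kinase gene hrk1 (2.06-fold). Their upstream genes differed by log2 -0.01 to 0.09. SPAC23C4.04c and rlp1 had values just past 2-fold and were at log2 0.96 and 0.98 without replicate 3 of dis2Δ. They also fell short of 2-fold without 1 swd22Δ library, replicate 1 for SPAC23C4.04c (0.98) and replicate 2 for rlp1 (log2 1.00 after rounding), and rlp1 did so with scaling by library size alone (0.99).

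**Figure D3:**
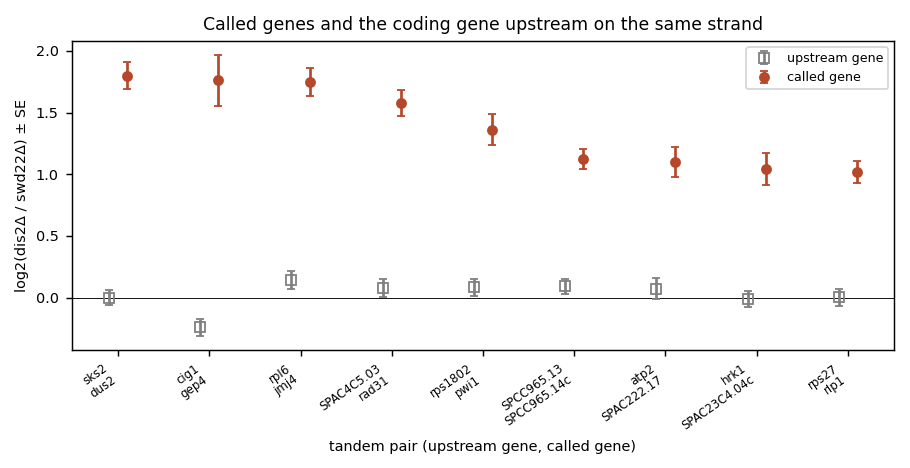
Log2 ratio of dis2Δ to swd22Δ with its standard error for 9 called genes away from chromosome ends (filled circles) and for the coding gene upstream on the same strand (open squares), 3 libraries a strain. The called genes lie between 1.02 and 1.80 and the upstream genes between -0.24 and 0.14.

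Counts for the same arrangement over all coding genes away from the ends are a description, since the arrangement was defined after the called genes were seen and these genes are included. Of 119 genes close behind an upstream gene in the top 10% of coding genes by counts per kilobase, 27 had an edgeR adjusted p at or below 0.05 and were higher in dis2Δ (22.7%) and 6 were lower (5.04%), with a median log2 difference of 0.10. Close behind other genes, 130 of 1376 were higher (9.45%, the share over all coding genes) and 84 lower (6.10%), with a median of 0.008. Of the 3316 genes without a close upstream gene, 255 were higher (7.69%) and 283 lower (8.53%), with a median of -0.014. The 27 include 5 of the called genes that prompted the count.

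The remaining called genes away from the ends were of mixed function. They included spo6, which encodes the regulatory subunit of a kinase needed in meiosis, at 208, 269 and 242 normalized counts against 72.1, 86.6 and 78.0 (3.02-fold, edgeR adjusted p = 3.1e-06). spo6 lies wholly over lam2, on the other strand, which differed by log2 -0.08. pfl7, a gene for a cell surface glycoprotein of the flocculin type, was at 1077, 948 and 948 against 243, 459 and 284 (3.00-fold). mug14, listed among the core stress genes, was at 190.5, 171 and 221 against 52.1, 76.4 and 47.0 (3.29-fold), and guf1, which encodes a mitochondrial translation GTPase, at 151, 163 and 164 against 43.1, 60.5 and 51.3 (3.07-fold). The cytochrome b5 reductase gene SPCC330.03c was 2.61-fold higher, and the acetyltransferase gene SPBC1271.07c was higher by log2 1.07. SPBC1271.07c was at log2 0.99 without replicate 1 of swd22Δ. Some genes lay only a little past the 100 kb limit. pfl7 and mug14 were 118 and 129 kb from the left end of chromosome II. SPCC330.03c was 110 kb from the left end of chromosome III, and the tandem gene SPCC965.14c 137 kb from its right end.

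The 5 coding genes lower in dis2Δ differed less. The stress-responsive genes ddr48 and rds1 were at 127, 110.2 and 145 normalized counts against 309.6, 383 and 285, and at 611, 690.2 and 805 against 1745, 1758 and 1605. These were differences of log2 -1.36 ± 0.15 and -1.28 ± 0.09, with edgeR adjusted p of 1.27e-05 and 1.03e-07. Most of rds1 lies over SPAC343.20 on the other strand, which was higher in dis2Δ (log2 0.80). SPAPB18E9.04c, an uncharacterized gene, was at 1032, 1024 and 997 against 2252, 2425 and 2153, although 68.17% of its words are unique. The uracil-regulated genes urg1 and urg2 varied within strains, urg1 at 1194, 909 and 688 against 1439, 2543 and 1789.8, and urg2 at 2443, 1846 and 1294 against 2953, 5000.5 and 3579.6. Without replicate 2 of swd22Δ their differences were log2 -0.79 and -0.81, and without replicate 3 of dis2Δ -0.87 and -0.84, so that both calls rest on 1 library of either strain. Of 10 listed uracil-regulated genes 4 passed the edgeR adjusted p, all lower, against 7.61% over all coding genes, with urg3 at log2 -0.47 and uck2 at -0.38. The median log2 difference of the list was 0.06.

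Listed functions separated the strains by small amounts, mostly under 2-fold. The lists are read here against 9.45% higher and 7.61% lower among all coding genes. They were written with earlier results of these data known, so their counts are a description and no test. Of 18 heat shock chaperone genes 9 were lower in dis2Δ by the edgeR adjusted p and none higher, with a median log2 difference of -0.32. psi1, an Hsp40 gene, was at 1979.5, 2420.5 and 2271 normalized counts against 3727, 3173 and 4141 (log2 -0.73, edgeR adjusted p = 6.31e-05), and hsp90 at log2 -0.47. hsp104, a disaggregase gene, was at 2210.1, 2949.7 and 2528 against 4485, 3036 and 5215, with the lowest swd22Δ library, replicate 2, only just above the dis2Δ libraries. Without that library 12 of the 18 were lower. Of 23 core environmental stress genes 10 were lower and 3 higher, with hsp9 at log2 -0.77 and gpd1, which makes glycerol, at -0.52. Of 11 histone genes 6 were lower (median -0.28), among them htb1 at log2 -0.35 and hta2 at -0.33. Among 16 glycolysis and fermentation genes 5 were lower and 1, eno102, was higher. Leaving out single libraries moved the number lower between 2 and 8 for glycolysis, 6 and 11 for the stress genes, 7 and 12 for heat shock and 4 and 7 for histones. The glycolysis count was 2 without replicate 1 of swd22Δ, without replicate 1 of dis2Δ or without replicate 2 of dis2Δ, and 8 without replicate 2 of swd22Δ. The stress count was 6 without replicate 1 of either strain.

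On the other side, of 139 cytosolic ribosomal protein genes 36 were higher in dis2Δ by the edgeR adjusted p and 2 lower, with a median of 0.16. That count moved from 7 to 86 as single libraries were left out, with medians of 0.12 to 0.21. It was 7 without replicate 2 of dis2Δ, 8 without replicate 1 of swd22Δ, 17 without replicate 1 of dis2Δ, 31 without replicate 2 of swd22Δ, 25 without replicate 3 of dis2Δ and 86 without replicate 3 of swd22Δ. Of 8 hexose transporter genes 4 were higher and 1 lower: ght3 above, ght7 at the left end of chromosome II (log2 1.70), ght6 (1.46, at no more than 26.8 normalized counts), and ght5, the high-affinity glucose transporter gene (log2 0.67, edgeR adjusted p = 0.000958). Of 18 targets of the G1/S factor MBF 6 were higher, with cdt1, a replication licensing gene, at log2 0.62 and nrm1 at 0.45, and none lower. Of 21 genes of mating and pheromone response 7 were higher and none lower, with mei2, the switch to meiosis, at 639, 645 and 605 normalized counts against 358, 307 and 368 (log2 0.87), the MAP kinase gene spk1 at 0.62 and ste11 at 0.55, while the list median was -0.02. The MBF count was 10 without replicate 2 of swd22Δ, 4 without its replicate 1 and 3 without replicate 2 of dis2Δ. The mating count was 3 without replicate 1 of swd22Δ, without replicate 1 of dis2Δ or without replicate 2 of dis2Δ. The cell wall glucanase gene exg1 was at 17071, 17626 and 16485 against 10917, 11443 and 11462 (log2 0.60, edgeR adjusted p = 6.00e-06).

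**Figure D4:**
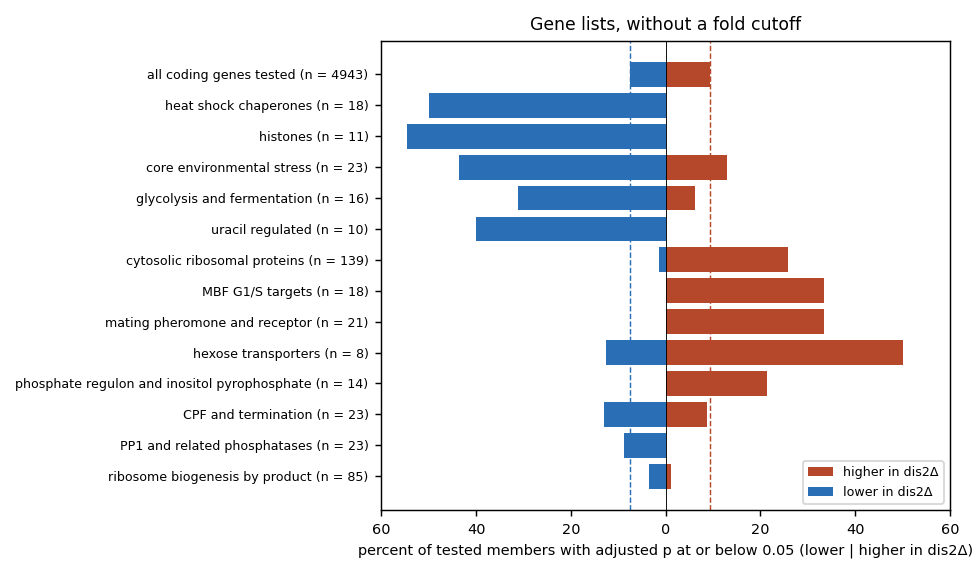
Percent of the tested members of each list with an edgeR adjusted p at or below 0.05, to the right where higher in dis2Δ and to the left where lower, with dashed lines at the percentages over all coding genes. Bars for heat shock chaperones and histones point only to the left, those for MBF targets and the mating list only to the right.

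Genes of the machinery itself moved little. Of 23 genes of cleavage, polyadenylation and termination none was called. By the edgeR adjusted p, 2 were higher (8.7%) and 3 lower (13.0%), against 9.45% and 7.61% over all coding genes. Their log2 differences lay between -0.28 and 0.28. ppn1 was at log2 -0.02 (edgeR adjusted p = 0.908). Of 23 genes for PP1 and other phosphatases none was called. By the edgeR adjusted p, 2 of them were lower (8.7%) and none was higher. sds21, which encodes the other PP1 catalytic subunit, was at 3087, 3045 and 3004 normalized counts against 3314, 3063 and 3296 (log2 -0.08 ± 0.06, edgeR adjusted p = 0.357).

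The 10 non-coding loci lower in dis2Δ all lay over a coding gene on the other strand, along at least 85.2% of their length. All 10 were thus covered over at least 50% of their length, as were 55.3% of all 982 non-coding loci tested that have a position. The share of all loci covered along at least 85.2% was not counted. SPNCRNA.936, over the DNA repair gene rad50, was at 86.6, 69.1 and 88.7 normalized counts against 250.4, 183 and 253 (2.80-fold lower in dis2Δ, edgeR adjusted p = 1.98e-05). SPNCRNA.1529, over the replication origin factor gene orc1, was at 163, 138 and 146 against 466, 214 and 571, and SPNCRNA.905, over the invertase gene inv2, at 97.5, 86.4 and 113 against 266, 311 and 232. SPNCRNA.1564, over opa3, was at 93.9, 72.4 and 86.6 against 211, 237 and 214. Of the 10 coding genes on the other strand 2 were higher in dis2Δ by the edgeR adjusted p, inv2 (log2 0.84) and opa3 (0.41), and none was lower. Over all coding genes tested 9.45% were higher and 7.61% lower by that measure. A link between the 2 strands was not tested. Since the strand setting of the counting is not given, reads of the 2 strands could not be told apart with certainty. Replicate 2 of swd22Δ was low for SPNCRNA.1529, SPNCRNA.1273 and SPNCRNA.687, and for SPNCRNA.687 it reached 374 normalized counts, within the dis2Δ range of 331 to 399. SPNCRNA.687 was not called by DESeq2, at log2 -0.97 with a replicate block, or without replicate 1 of swd22Δ (-0.89), replicate 3 of swd22Δ (-0.82) or replicate 2 of dis2Δ (-0.99). SPNCRNA.1033 was not called without replicate 1 of swd22Δ (-0.85) or replicate 1 of dis2Δ (-0.97). With single libraries left out in turn, at most 14 non-coding loci were lower.

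Of the 19 higher non-coding loci, 12 lay over a coding gene on the other strand (63.2%, against 72.8% of all). omt3, a long non-coding RNA of the meiotic chromosome foci, was at 159, 137 and 158 normalized counts against 39.1, 32.6 and 44.9 (3.91-fold, edgeR adjusted p = 2.32e-06). srp7, the 7SL RNA, was at 61.1, 238 and 621 in dis2Δ against 102, 71.7 and 53.5, and the ribosomal RNA loci SPRRNA.49 and SPRRNA.46 rose over the same dis2Δ libraries, from 52.9 to 539 and from 31.0 to 253. These 3 loci overlapped between strains, and without replicate 3 of dis2Δ none was called. srp7 and both ribosomal RNA loci were not called by DESeq2 either, and the ribosomal RNA loci have no unique words (0%). Of 80 other loci, such as ribosomal and small nucleolar RNAs, 6 were higher and none lower, and 3 of the 6 lay at the left end of chromosome II. Among these, the locus SPBC1348.11 was at 285, 296 and 287 normalized counts against 19.0, 17.7 and 31.0.

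**Figure D5:**
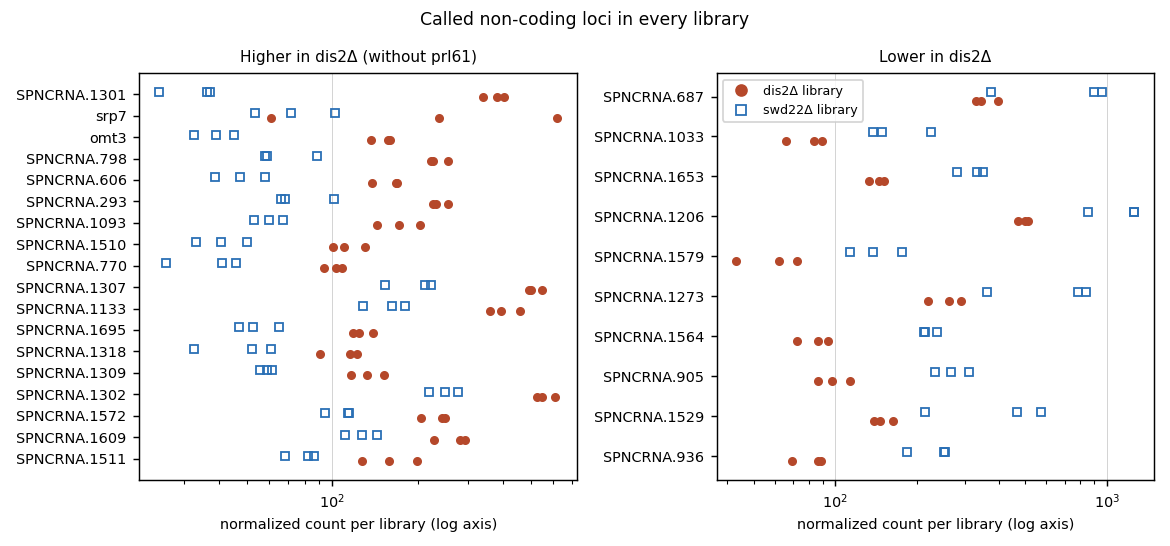
Normalized counts (log axis) of 18 non-coding loci higher and 10 lower in dis2Δ, one row a locus, with filled circles for the dis2Δ and open squares for the swd22Δ libraries. The strains overlap for srp7, where the circles run from 61.1 to 621, and for SPNCRNA.687.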

How the data were processed

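The authors purified RNA with hot acid phenol, made libraries with the Illumina TruSeq stranded mRNA kit and, per the submitters' processing notes, mapped reads with HISAT2 2.1.0 to ASM294v2 and counted them with HTSeq 0.10.0. The deposited values are raw counts per locus. The strand setting is not given in the sources used here. The table held 6987 entries for 6986 IDs, 1 of them entered more than once and summed. Names, classes, neighbours and sequences came from ASM294v3, where 6837 IDs matched. No coordinates were converted.

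The 6 libraries were fitted under R 4.3.3 by the quasi-likelihood functions of edgeR 4.0.16, after filterByExpr and with TMM scaling. 6030 loci passed the filter, and every adjusted p is from this test with Benjamini-Hochberg adjustment over all of them. Common dispersion was 0.005125. No replicate pair was close enough to be 1 library deposited more than once. Normalized counts are scaled to the mean library of 20636381 effective counts. Replicates are said to be biological, and their p-values measure the spread between cultures of 1 strain.

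Calls used the cutoffs of the paper. Members and gene lists were chosen with earlier results of these data known. From the lists, 11 symbols that belong to other proteins in this annotation were removed after the annotation was seen. Genes named by rule were the 12 largest differences in each direction, called members of lists written by symbol, 4 non-coding loci in each direction and the tested loci held apart. Other called genes, and list members beyond these, were chosen after their values were seen. Alternatives were DESeq2 1.42.0, all 12 libraries, other scalings, filters and cutoffs, a replicate block and each library left out. Chosen after seeing the data were counts without chromosome ends and without prl61, and the tandem definitions. Python 3.11.15 and pandas 2.3.3 made the tables.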

Additional observations from a re-analysis of the deposited data

How the results depend on the processing

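DESeq2 called 35 coding genes higher and 5 lower in dis2Δ, and these were among the genes of the edgeR fit. All 12 libraries, relative log expression factors and no low-count filter gave 35 and 5 as well. Library size alone gave 34 and 6. These settings moved the median log2 difference of all loci by less than 0.1. Without a mean-count cutoff the counts were 56 and 8 for coding genes and 42 and 29 for non-coding loci. With a cutoff of 500 they were 16 and 4, and 2 and 3. Without a fold cutoff they were 437 and 371, and 73 and 63. Tested against a 2-fold threshold with glmTreat, they were 22 and 0, and 6 and 0, so outside the loci held apart no lower locus was shown to exceed 2-fold (at an adjusted p without that threshold, 376 coding genes were lower, and 1531 coding genes had an unadjusted p under 0.05). Without genes within 100 kb of a chromosome end, 15 coding genes were higher. With each library left out in turn, coding genes higher ran from 32 to 37 and lower from 4 to 7, and non-coding loci higher from 16 to 21 and lower from 8 to 14.

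Same-numbered libraries did not deviate together (correlations of 0.0483, -0.0951 and -0.261). Whether same-numbered cultures were handled together cannot be told from these values. A replicate block gave 37 and 5 coding genes, 20 and 9 non-coding loci. No called locus and no tested locus held apart changed direction under any alternative run. The direction of other genes named here was not followed across these runs. Calls were lost for 4 loci with DESeq2, 45 with glmTreat and 52 with the cutoff of 500. Depth limits loci near the cutoff of 100 counts.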

Other observations

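Levels in wild-type and ppn1Δ cells were not part of the comparison and are given as descriptions, since the genes were chosen on their values in dis2Δ and swd22Δ. For the 9 tandem genes, every wild-type library lay above every swd22Δ library in CPM, and every ppn1Δ library lay below every dis2Δ library. dus2 was at 36.7 to 44.9 CPM in wild-type, 31.9 to 32.6 in dis2Δ, 8.61 to 10.7 in swd22Δ and 5.73 to 8.83 in ppn1Δ. rlp1 was at 27.0 to 39.5 CPM in wild-type, 28.9 to 32.5 in dis2Δ, 15.1 to 15.3 in swd22Δ and 7.55 to 13.9 in ppn1Δ. Wild-type overlapped dis2Δ for 6 of the 9, lay above it for 1 and below it for 2.

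At the left end of chromosome II the order was another one. For all 10 called genes every wild-type and every ppn1Δ library lay below every dis2Δ library. grt1 was at 3.91 to 4.73 CPM in wild-type, 3.29 to 5.28 in ppn1Δ, 2.13 to 2.55 in swd22Δ and 49.5 to 55.8 in dis2Δ. pho84 and pho1 were highest in wild-type, at 1459 to 1543 and 1421 to 1450 CPM, against 292 to 411 and 213 to 279 in dis2Δ, 133 to 148 and 117 to 129 in swd22Δ and 108 to 116 and 98.8 to 114 in ppn1Δ.

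For the 10 non-coding loci lower in dis2Δ, every wild-type library lay below every swd22Δ library, and for 7 it also lay below every dis2Δ library. SPNCRNA.1206 was at 6.46 to 7.93 CPM in wild-type, 22.3 to 25.1 in dis2Δ, 43.4 to 61.8 in swd22Δ and 46.8 to 66.2 in ppn1Δ. At the right end of chromosome I the ppn1Δ libraries were also low, with SPAC750.01 at 0.853 to 1.19 CPM in ppn1Δ, 0.378 to 0.588 in swd22Δ, 105 to 130.2 in dis2Δ and 56.9 to 84.1 in wild-type. gdt1 varied more in ppn1Δ, at 0.397 to 11.1 CPM, against 0.52 to 1.86 in swd22Δ, 178 to 237 in dis2Δ and 138 to 145 in wild-type.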
